A study of Mus musculus with 23 samples.

Results

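Cystamine was set against Boc-DON in Q111 cells, a mouse striatal cell line whose huntingtin carries the expanded glutamine repeat of Huntington disease. The comparison comprised the 3 Q111 samples given cystamine at 250 µM and the 3 given Boc-DON at 50 µM, each for 12 h, which are 6 of the 23 samples of the study, and it covered every array probe with a gene symbol. They were chosen by the compound named in the sample titles. The 3 untreated Q111 samples were used to say which compound had departed, and the same contrast in Q7, the matched line with a normal repeat, had 3 cystamine and 2 Boc-DON arrays, since the submitters dropped the other Boc-DON array on quality. The study also gave ZDON, and its labels pair these compounds with a question about transglutaminase 2, which joins proteins at their glutamine side chains. Each genotype is 1 cell line, and no label says that replicates came from separate cultures, and the spread behind each p-value is that of these samples, possibly only technical. The compounds were given at different doses, so compound and dose cannot be told apart. The labels give the untreated samples no time and no vehicle, so the effects of a vehicle or of time and those of a compound cannot be told apart in the comparisons with them.

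Cystamine is the disulfide of the small thiol cysteamine. It acts on transglutaminases as a competing amine and by forming mixed disulfides, and it exchanges with thiols of other proteins as well. Boc-DON is a derivative of the glutamine analogue diazo-oxo-norleucine, which reacts with the active-site cysteine of enzymes that bind glutamine. Thiol-reactive agents are known to modify cysteines of KEAP1, the protein that otherwise directs the transcription factor NRF2 to degradation, and NRF2 then turns on genes of glutathione synthesis, conjugation and quinone reduction. ERK kinases and the AP-1 factors below them drive another fast response, in which genes for phosphatases that restrain ERK are themselves turned on.

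RNA had been hybridised to Illumina bead arrays. Levels are given as log2 of the background-corrected intensity, quantile normalized after log2. They are in the order of replicates 1, 2 and 3, which sat on BeadChips 1, 2 and 3. Before normalization the median intensity of the 9 Q111 arrays lay between 114.2 and 155.1. Of 12 measured markers of striatal projection neurons, 5 lay above the array median in all 3 groups. Among those that did not were the dopamine receptor genes Drd1 and Drd2 and the GABA-synthesis genes Gad1 and Gad2, and without detection calls it cannot be said whether these were expressed. Nes and Vim, which mark neural progenitors and are also made by mesenchymal cells, lay high, and 8 of 13 fibroblast and mesenchymal markers lay above the median. No marker in the lists for striatal, neuronal, progenitor, astrocyte, oligodendrocyte, microglial or fibroblast cells passed the test between the compounds. Over all genes 3.69% passed, and lists this short cannot be told from that share. In the endothelial and pericyte list 3 of 9 measured genes, Pdgfrb, Flt1 and Cspg4, lay above the median in all groups, and Pdgfrb and Flt1 were higher with cystamine, although a second Flt1 probe did not pass (adjusted p = 0.993). The summed intensity of that list ran from 2230 to 3391 with cystamine, from 1793 to 2309 with Boc-DON and from 2111 to 2796 without a compound, and its part in the results was not tested. The other 6, among them the endothelial genes Kdr, Pecam1, Cdh5 and Vwf, lay below it in every group.

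Many probes differed between cystamine and Boc-DON in Q111 cells. Of 19851 probes, 638 differed between the compounds in limma's moderated test with the replicate number as a block (adjusted p under 0.05, 3.21% of those tested). With cystamine 392 probes were higher (1.97%) and 246 were lower (1.24%). The 638 probes stood for 599 genes. Differences upward reached further than those downward, since 50 of the higher probes differed by more than 1 on the log2 scale and 2 of the lower ones did. In 559 of the 638 the 3 cystamine arrays did not overlap the 3 Boc-DON arrays, and in 636 the sign was the same on all 3 chips. Both counts follow in large part from the choice, since a test on these same arrays picked the probes. The split depends on scaling. When arrays were scaled on their medians instead of by quantiles, 176 probes were higher and 261 lower, so that 40.3% of the calls were higher in place of 61.4%.

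Each of these probes was then set beside the untreated arrays. Against untreated cells cystamine changed 152 of all 19851 probes (0.766%), 120 higher (0.605%) and 32 lower (0.161%). Boc-DON changed 60 (0.302%), 12 higher (0.0605%) and 48 lower (0.242%). Both comparisons use the same untreated arrays, and each uses arrays of the compound comparison again. Among the 392 probes higher with cystamine, 101 had moved past the threshold with cystamine alone, with a median log2 difference of 0.68 from untreated, while the median for Boc-DON was −0.0092. Another 30 had moved with Boc-DON alone, with a median of −0.679, and the cystamine median was 0.0372. These medians follow in large part from the sorting, which used the same comparisons with untreated. In 55 of the 101 and 17 of the 30 the untreated mean lay between those of the compounds. Both compounds had moved 6 further probes in opposite directions and 1 in the same direction. The remaining 254 had passed in neither comparison, and for 243 of them the untreated mean lay between those of the compounds. That position follows in large part from the choice of probes that differed between the compounds and passed against untreated with neither. Among the 246 lower probes, 14 had moved with cystamine alone, 6 with Boc-DON alone, 1 with both in opposite directions and 225 with neither. A probe that passed in neither comparison was not shown to be unchanged by either compound. Nor was a probe that passed with cystamine alone or Boc-DON alone shown to be unchanged by the other compound. Without the replicate block the departures from untreated fell from 159 probes to 59, and those of Boc-DON over all probes from 60 to 4.

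**Figure D1:**
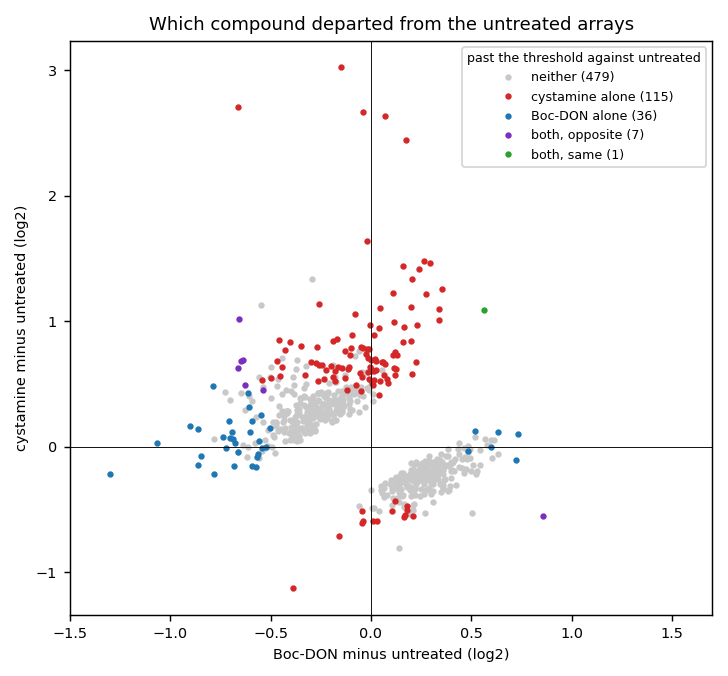
Difference from untreated for each of the 638 probes that differed between the compounds, with Boc-DON on the horizontal axis and cystamine on the vertical axis (log2 intensity, means of 3 arrays). Colour gives the comparison with untreated that passed the threshold: cystamine alone in 115 probes, Boc-DON alone in 36, both in opposite directions in 7, both in the same direction in 1 and neither in 479. The axes have the untreated arrays in common, and the empty band along the diagonal follows from showing only probes that differed between the compounds.

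Genes of the NRF2 response were higher with cystamine, and it was cystamine that had departed from untreated. Of 37 measured NRF2 targets 20 were higher and 0 lower. Of all 15161 genes, with 1 probe each, 3.69% passed, 2.2% higher and 1.49% lower. The median difference of the list was 0.467, against −0.00916 over all genes. Against untreated, 19 of the 37 were higher with cystamine (0.679% of all genes, with 0.165% lower and 0.844% in all), and 0 changed in either direction with Boc-DON (0.33% of all genes, 0.0726% higher and 0.257% lower). The medians of the list were 0.576 and 0.0803 in these comparisons. The lists of this report were chosen with earlier results of these data known. Some lists have genes in common, so their counts are not separate results.

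The largest difference in the list was that of Aldh3a1, an aldehyde dehydrogenase that clears lipid aldehydes. Its level was 12.38, 12.38 and 11.43 with cystamine, 9.19, 9.17 and 8.30 with Boc-DON and 9.33, 9.31 and 8.47 untreated. The Boc-DON and untreated arrays overlapped, and all 3 cystamine arrays lay far above both. Cystamine exceeded Boc-DON by 3.18 (SE 0.13, adjusted p = 3.95e-13), which is 9.04-fold with a 95% interval from 7.47 to 10.9. Against untreated the difference was 3.03 with cystamine (adjusted p = 1.12e-12) and −0.15 with Boc-DON (adjusted p = 0.782).

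Glutathione S-transferases, which join glutathione to reactive electrophiles, formed the next group. Of 19 measured members 6 were higher with cystamine and 1, Gstt3, was lower (difference −0.62, adjusted p = 0.0032), where 3.69% of all genes passed. Gsta2 stood at 11.52, 11.35 and 11.38 with cystamine, at 8.95, 8.87 and 8.32 with Boc-DON and at 9.03, 8.72 and 8.51 untreated. Cystamine was apart from both other groups, which overlapped, and the difference between the compounds was 2.70 (SE 0.16, adjusted p = 3.69e-10). A second Gsta2 probe gave 2.56 and the Gsta1 probe 2.26, but these genes are close copies, and their probes may share signal. Gsta4 had levels of 13.35, 13.29 and 13.54 with cystamine, 11.66, 11.59 and 11.97 with Boc-DON and 11.67, 11.63 and 11.97 untreated. For Gsta4 the Boc-DON and untreated arrays of 1 chip were nearly equal, and the difference between the compounds was 1.66 (SE 0.12, adjusted p = 1.47e-08). Mgst2, a microsomal member that also makes cysteinyl leukotrienes, differed by 1.03 (adjusted p = 5.08e-05).

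Cystine import and the glutathione and thioredoxin systems had 6 of 25 measured genes higher with cystamine (2.2% of all genes) and 0 lower (1.49%). Genes of this list, Txnrd1 and Gclm among them, are also in the NRF2 list and were counted there. Slc7a11, the exchanger subunit that brings cystine into the cell, stood at 8.72, 8.85 and 8.47 with cystamine, 7.67, 7.66 and 7.30 with Boc-DON and 7.68, 7.71 and 7.48 untreated. Its cystamine arrays lay above all others, with a difference of 1.14 between the compounds (adjusted p = 2.66e-05). Txnrd1 encodes cytosolic thioredoxin reductase. Its levels were 10.31, 9.97 and 10.22 with cystamine, 8.89, 8.95 and 9.01 with Boc-DON and 8.73, 8.83 and 8.49 untreated. The difference between the compounds was 1.21 (SE 0.16, adjusted p = 6.15e-05), and that of Boc-DON from untreated, 0.27, did not pass (adjusted p = 0.626) although its 3 arrays lay above the untreated ones. Gclm is the modifier subunit of the enzyme that limits glutathione synthesis. It read 12.85, 12.58 and 12.51 with cystamine, 12.04, 11.69 and 11.92 with Boc-DON and 11.79, 11.59 and 11.25 untreated, a difference of 0.76 between the compounds (adjusted p = 3.01e-04). Srxn1, sulfiredoxin, differed by 0.90, 1.17 and 1.17 by its 3 probes, and Gsr, glutathione reductase, by 0.62.

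The promoters of Txnrd1 and Gclm are shown because they belong to genes of this group that moved together and hold the core of the antioxidant response element, the sequence that NRF2 binds with small MAF proteins. The sequences are those of RefSeq on build GRCm38.p6, plus strand, the 250 bases before the annotated start, at chr10:82858956-82859205 for Txnrd1 and chr3:122245307-122245556 for Gclm. Capitals mark the match to TGACNNNGC, read on either strand, and in both promoters it lies on the minus strand. Txnrd1 has 3 promoters in RefSeq, of which the one with the match is given.
Txnrd1: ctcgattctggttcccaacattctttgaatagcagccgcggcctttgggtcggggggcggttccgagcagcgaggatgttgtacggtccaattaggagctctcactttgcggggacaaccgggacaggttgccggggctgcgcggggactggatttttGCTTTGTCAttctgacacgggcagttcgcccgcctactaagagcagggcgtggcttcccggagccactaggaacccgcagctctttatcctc
Gclm: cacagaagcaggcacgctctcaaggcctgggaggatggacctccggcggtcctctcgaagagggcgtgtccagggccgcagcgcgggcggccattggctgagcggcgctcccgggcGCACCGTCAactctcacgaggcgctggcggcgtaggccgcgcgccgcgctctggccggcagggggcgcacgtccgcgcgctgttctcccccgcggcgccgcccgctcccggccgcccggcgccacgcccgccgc
In Txnrd1 the match begins 92 bases before the start and in Gclm 134. Of the 34 genes of the NRF2 list with a RefSeq promoter, a match lay in this window in 23.5%, and it did in 11.5% of all 27025 genes. A match describes the letters of the window and does not show that a factor binds there.

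Single genes of quinone reduction, haem breakdown and metal binding were also higher with cystamine. Nqo1, a quinone reductase, had levels of 13.13, 13.23 and 12.42 with cystamine, 12.01, 11.90 and 11.46 with Boc-DON and 11.67, 11.78 and 11.31 untreated. The difference between the compounds was 1.13 (adjusted p = 1.03e-06), and a second probe gave 1.06. Hmox1, the inducible haem oxygenase, read 13.98, 13.77 and 13.004 with cystamine, 12.51, 12.45 and 11.97 with Boc-DON and 12.43, 12.19 and 11.82 untreated. The arrays of the compounds did not overlap, and they differed by 1.28 (SE 0.14, adjusted p = 3.39e-06). In the haem and iron list 5 of 20 genes were higher with cystamine, among them the haem transporter Slc48a1 (difference 0.63) and the haem-synthesis enzyme Alas1 (0.45), and 1, the biliverdin reductase gene Blvra, was lower (−0.40, adjusted p = 0.049). The median of that list was 0.0244, and 3.69% of all genes passed. Mt2 and Mt3 of 13 genes for metallothioneins and metal transport were higher, with a list median of −0.0429, and Mt1 and Mt4 did not pass. Mt2 differed by 1.11 (adjusted p = 3.48e-07) and Mt3 by 0.94 (adjusted p = 0.0206). The call for Mt3 was lost without cystamine replicate 1 (adjusted p = 0.181) and without Boc-DON replicate 1 or 2 (0.101 and 0.104). Of 11 measured targets of the aryl hydrocarbon receptor 4 were higher, but Aldh3a1, Nqo1 and Ugt1a6a are also in the NRF2 list, and the probes for Ugt1a6a and Ugt1a6b belong to genes with exons in common. Other Ugt1a6a probes differed by −0.12, 0.58 and 0.10 without passing.

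The other 17 genes of the NRF2 list did not pass. The ferritin genes Fth1 and Ftl1 and the peroxiredoxin gene Prdx1 differed by 0.01, 0.01 and 0.00, at levels above 99% of the probes of an array, and whether the arrays can show a difference at such levels was not tested. Nfe2l2, which encodes NRF2 itself, differed by −0.21 (adjusted p = 0.492), and Keap1 by −0.10 (adjusted p = 0.756). These 5 genes were chosen after their values were seen.

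**Figure D2:**
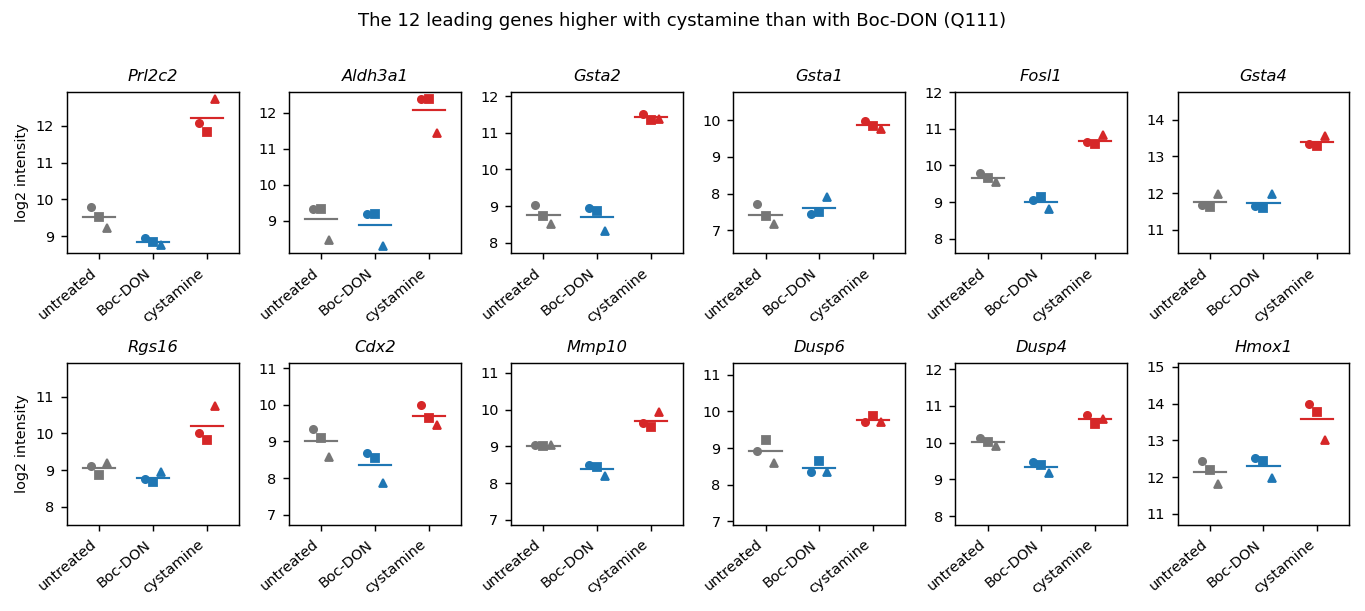
Level of the 12 genes that led the list of those higher with cystamine, in untreated, Boc-DON and cystamine Q111 cells (log2 intensity, each panel with its own range). Circles, squares and triangles are replicates 1, 2 and 3, and lines are means of 3 arrays. In Aldh3a1, Gsta2, Gsta1, Gsta4 and Hmox1 the Boc-DON points overlap the untreated ones, while in Fosl1, Mmp10 and Dusp4 they lie below them.

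Genes of the ERK and AP-1 response differed in another way, with cystamine above and Boc-DON below the untreated arrays in several of them. Of 30 measured immediate early and ERK feedback genes 9 were higher with cystamine than with Boc-DON and 0 lower, with a list median of 0.227. Against untreated 5 were higher with cystamine and 2 were lower with Boc-DON, and the list medians were 0.241 and −0.0277. Of 13 secreted and surface genes linked to AP-1, 6 were higher and 0 lower between the compounds, with a median of 0.548. In that list 3 were higher with cystamine against untreated and 1 was lower with Boc-DON, with medians of 0.253 and −0.255. Over all genes 3.69% passed between the compounds, and 0.844% with cystamine and 0.33% with Boc-DON against untreated.

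Fosl1, which encodes the AP-1 subunit FRA-1, had the largest difference between the compounds among the probes with departures on both sides. Its Boc-DON departure did not pass without the replicate block. It stood at 10.64, 10.57 and 10.82 with cystamine, 9.05, 9.16 and 8.80 with Boc-DON and 9.79, 9.65 and 9.54 untreated. No 2 of the 3 groups overlapped. The compounds differed by 1.67 (SE 0.14, adjusted p = 7.93e-08), with 1.02 for cystamine over untreated (adjusted p = 2.33e-04) and −0.66 for Boc-DON (adjusted p = 0.0421).

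Dusp4 and Dusp6 encode phosphatases that switch off ERK kinases. Dusp4 read 10.74, 10.51 and 10.65 with cystamine, 9.48, 9.39 and 9.18 with Boc-DON and 10.12, 10.01 and 9.90 untreated, again with no overlap. The difference between the compounds was 1.28 (adjusted p = 1.09e-07), made up of 0.62 for cystamine over untreated (adjusted p = 0.0042) and −0.66 for Boc-DON (adjusted p = 0.0088). Dusp6 read 9.72, 9.87 and 9.70 with cystamine, 8.35, 8.65 and 8.36 with Boc-DON and 8.91, 9.22 and 8.59 untreated. Here cystamine alone departed, by 0.85 (adjusted p = 6.28e-04), and Boc-DON overlapped the untreated arrays with a difference of −0.46 (adjusted p = 0.153). A dimmer probe of each gene differed by 0.46 for Dusp4 and 0.31 for Dusp6 and did not pass. Etv5, an ETS factor induced by growth factor signals, differed by 0.87 between the compounds (adjusted p = 1.52e-04) and from untreated with neither. Fos, Egr1 and Jun, chosen after their values were seen, differed by 0.07, 0.22 and 0.13 and did not pass.

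Prl2c2, proliferin, a prolactin-like hormone gene known as a growth factor and AP-1 target in mouse fibroblasts, had the largest difference among the genes named by rule. It stood at 12.08, 11.84 and 12.73 with cystamine, 8.95, 8.85 and 8.74 with Boc-DON and 9.80, 9.51 and 9.23 untreated. The compounds differed by 3.37 (SE 0.18, adjusted p = 5.52e-11), 10.3-fold with a 95% interval from 7.92 to 13.4. Cystamine departed by 2.70 (adjusted p = 2.60e-09), and the Boc-DON arrays lay below every untreated one without passing (difference −0.66, adjusted p = 0.152). The gene has near-identical copies, and the signal may be the sum of several. Mmp10, a secreted matrix protease, read 9.62, 9.53 and 9.94 with cystamine, 8.48, 8.44 and 8.19 with Boc-DON and 9.04, 8.996 and 9.03 untreated. Its groups were all apart, the compounds differed by 1.33 (adjusted p = 3.48e-07), and both departures passed. Plaur, the urokinase receptor, differed by 1.2 (adjusted p = 6.17e-06). Cystamine passed against untreated (0.77, adjusted p = 0.0036). The Boc-DON arrays lay below every untreated one without passing (−0.43, adjusted p = 0.226). Plat, tissue plasminogen activator, differed by 0.68 (adjusted p = 5.54e-04), and neither compound passed against untreated.

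Among the leading genes outside these lists, Rgs16, a brake on G protein signalling, was at 10.003, 9.82 and 10.76 with cystamine, 8.77, 8.67 and 8.96 with Boc-DON and 9.11, 8.87 and 9.20 untreated. Cystamine alone departed, and the compounds differed by 1.40 (SE 0.21, adjusted p = 2.13e-04). Cdx2, a homeobox factor of intestine and trophoblast, was at 9.99, 9.65 and 9.44 with cystamine, 8.68, 8.55 and 7.87 with Boc-DON and 9.33, 9.09 and 8.58 untreated. The compounds differed by 1.33 (adjusted p = 7.29e-08). Within each chip cystamine was highest and Boc-DON lowest, and both departures passed with the block (adjusted p = 0.0013 and 0.0115) and not without it (0.538 and 0.610). Aqp1 and Fhl2, chosen for this pattern after their values were seen, were the other higher probes with departures on both sides. The water channel Aqp1 differed between the compounds by 1.12 and the LIM-domain cofactor Fhl2 by 0.99. A second Aqp1 probe differed by 1.08 and passed against untreated with cystamine alone.

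For a further group Boc-DON had passed against untreated, downward, and cystamine had not. It held 30 probes of 26 genes, and in 17 of the 30 the untreated mean lay between those of the compounds. The cystamine differences from untreated ran from −0.22 for Lce1f to 0.48 for Tnnt2, the gene of cardiac troponin T, where that of Boc-DON was −0.79. Cyp26b1, the enzyme that breaks down retinoic acid, stood at 11.85, 11.94 and 11.63 with cystamine, 10.77, 10.95 and 10.41 with Boc-DON and 11.83, 11.86 and 11.63 untreated. The cystamine and untreated arrays of each chip differed by little, and every Boc-DON array lay below all of them. Boc-DON differed from untreated by −1.06 (SE 0.11, adjusted p = 4.09e-05) and cystamine by 0.03 (adjusted p = 0.956), so that the compounds differed by 1.09 (adjusted p = 2.34e-06). The other 14 measured genes of retinoic acid binding and breakdown did not pass between the compounds.

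Lce1f, a gene of the skin's cornified envelope, and Ccnd1, cyclin D1, behaved alike and were chosen after their values were seen. Lce1f read 9.03, 8.81 and 8.52 with cystamine, 7.86, 7.77 and 7.47 with Boc-DON and 9.54, 9.07 and 8.41 untreated. Boc-DON was below every other array, at −1.30 from untreated (adjusted p = 4.09e-05). Of 4 Ccnd1 probes 3 were in this group, with differences between the compounds of 0.92, 0.81 and 0.77 and of Boc-DON from untreated of −0.61, −0.74 and −0.85, and the fourth did not pass between the compounds (0.37, adjusted p = 0.0665). Cyclin D1 drives entry into the cell cycle. Between the compounds 0 of 23 S phase genes and 0 of 23 mitosis genes passed, lists too short for these counts to be told from the 3.69% over all genes. Cyp26b1, Lce1f and 1 Ccnd1 probe, together with Slc46a3 described below, were the 4 departures of Boc-DON that passed without the replicate block. Of 44 Boc-DON departures among the probes that differed between the compounds, 7 still passed without Boc-DON replicate 1, 12 without replicate 2 and 10 without replicate 3, and 6 passed without untreated replicate 3.

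NF-kappaB, a factor of inflammation, controls many chemokine genes, and 9 of 34 measured genes of its list were higher with cystamine than with Boc-DON and 0 lower (median 0.237). Against untreated 1 was higher with cystamine and 2 were lower with Boc-DON. The shares over all genes were 3.69% between the compounds, and 0.844% with cystamine and 0.33% with Boc-DON against untreated. Cxcl1, a chemokine that draws neutrophils, stood at 10.34, 10.27 and 9.84 with cystamine, 9.74, 9.74 and 9.28 with Boc-DON and 10.50, 10.50 and 10.10 untreated. Boc-DON lay below both other groups, at −0.78 from untreated (adjusted p = 0.0031), while cystamine overlapped the untreated arrays. Ccl7, a monocyte chemokine, read 10.78, 10.90 and 10.06 with cystamine, 9.73, 9.70 and 9.56 with Boc-DON and 10.38, 10.37 and 10.37 untreated. It differed by 0.91 between the compounds (adjusted p = 9.51e-04) and by −0.71 for Boc-DON against untreated (adjusted p = 0.0474). Ccl2 and Cx3cl1, also chemokine genes, differed by 0.94 and 0.78 between the compounds and passed against untreated with neither. Ptgs2, the inducible cyclooxygenase, was the member higher with cystamine against untreated, by 0.97 (adjusted p = 0.0148), and it was chosen after its values were seen, although a second probe differed between the compounds by 0.21 and did not pass. The call for Cxcl1 between the compounds was lost without the replicate block (adjusted p = 0.0759) and without Boc-DON replicate 3 (adjusted p = 0.0565).

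The Cxcl1 promoter is shown because Boc-DON departed most clearly in that chemokine gene. It is that of RefSeq on GRCm38.p6, plus strand, chr5:90890995-90891244, and capitals mark letters covered by matches to the NF-kappaB pattern, GGG and then CC after 5 bases of any kind, of which there are 4 on both strands together and which overlap each other.
Cxcl1: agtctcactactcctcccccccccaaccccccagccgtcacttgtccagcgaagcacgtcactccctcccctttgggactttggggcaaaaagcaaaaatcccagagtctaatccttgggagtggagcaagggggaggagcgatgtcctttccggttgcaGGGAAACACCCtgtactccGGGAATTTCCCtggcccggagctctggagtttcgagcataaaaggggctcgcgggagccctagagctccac
So short a pattern is common. A gene was counted if any of its promoters held a match. The pattern was found in 75.0% of the 28 genes of the NF-kappaB list and in 48.7% of all genes with a promoter. It was also found in 76.5% of those of the NRF2 list, while the promoter of Cx3cl1 held no match in this window. The AP-1 site TGAGTCA, on either strand, was found in 0 of the 23 genes of the immediate early list. In the NF-kappaB list 6 of 28 genes held it, as did 5.16% of all genes with a promoter.

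Genes of lipid storage gave 4 calls among 33 measured, all higher with cystamine than with Boc-DON. The 3 departures from untreated were downward with Boc-DON. All genes together gave calls at 3.69% between the compounds and at 0.33% with Boc-DON against untreated. Plin2, the coat protein of lipid droplets, read 13.30, 13.22 and 13.48 with cystamine, 12.66, 12.45 and 12.72 with Boc-DON and 13.23, 13.25 and 13.17 untreated. The Boc-DON arrays lay below all others, at −0.60 from untreated (adjusted p = 0.0219). Angptl4, a secreted inhibitor of lipoprotein lipase, was at 11.13, 11.18 and 11.47 with cystamine, 10.55, 10.62 and 10.49 with Boc-DON and 11.20, 11.04 and 11.45 untreated, which is −0.68 for Boc-DON (adjusted p = 0.0188). Mgll, monoglyceride lipase, differed by −0.50 from untreated with Boc-DON (adjusted p = 0.0337). A second Angptl4 probe and a second, dim Mgll probe did not pass between the compounds. Plin4, another droplet coat protein, differed by 1.07 between the compounds (adjusted p = 0.0080) with overlapping arrays, from 10.21 to 12.39 with cystamine and from 9.92 to 10.78 with Boc-DON.

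**Figure D3:**
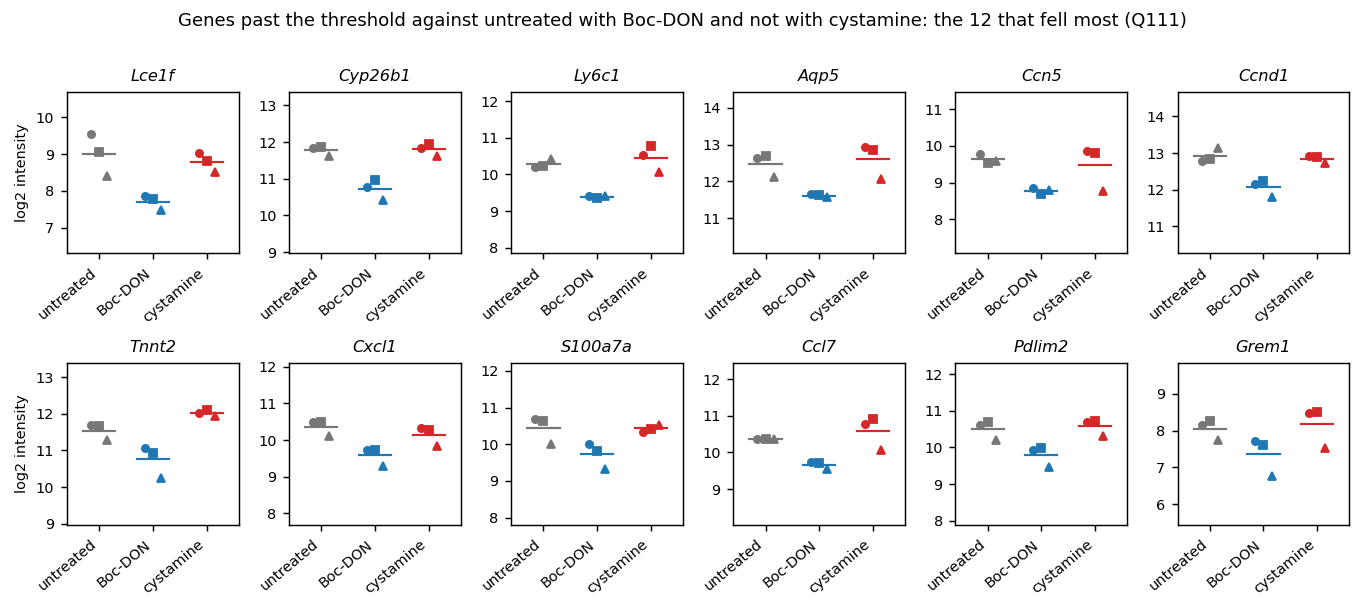
Level of 12 genes that passed the threshold against untreated with Boc-DON and not with cystamine, those with the largest fall, in untreated, Boc-DON and cystamine Q111 cells (log2 intensity, each panel with its own range). Circles, squares and triangles are replicates 1, 2 and 3, and lines are means of 3 arrays. In Cyp26b1 the Boc-DON points lie between 10.41 and 10.95, and the other 6 between 11.63 and 11.94.

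Stress lists beside NRF2 had fewer calls. Of 28 ATF4 targets, which serve amino acid supply, 7 were higher against untreated with cystamine (0.679% of all genes). Between the compounds 0 were lower with cystamine (1.49% of all genes) and 6 were higher (2.2%). Beside Slc7a11 these included Stc2, a secreted glycoprotein (difference 0.84, adjusted p = 8.36e-05), the transcription factor Cebpb (0.68, adjusted p = 6.13e-04) and the glycine transporter Slc6a9 (0.65, adjusted p = 0.0013). Of 22 p53 targets 6 were higher and 0 lower, where 2.2% of all genes were higher and 1.49% lower. Cdkn1a, which encodes the cell cycle inhibitor p21, was the 1 probe moved the same way by both compounds. It read 13.04, 12.98 and 12.20 with cystamine, 12.34, 12.37 and 11.93 with Boc-DON and 11.90, 11.87 and 11.18 untreated. Within each chip cystamine was highest and untreated lowest, at 1.09 for cystamine (adjusted p = 1.04e-06) and 0.56 for Boc-DON (adjusted p = 0.0219), and a second probe passed for cystamine alone (1.01 against 0.34). Without the replicate block neither departure passed (adjusted p = 0.0822 and 0.634), nor did the difference of 0.52 between the compounds (0.438). Phlda3, an inhibitor of AKT, differed by 0.80 (adjusted p = 1.52e-04), and Plk2, a stress-induced kinase, fell with Boc-DON by 0.57 against untreated (adjusted p = 0.0265).

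The lysosome and autophagy list had 3 of 30 genes higher, the cargo receptor Sqstm1 (0.59), the protease Ctsd (0.48) and the hexosaminidase subunit Hexa (0.46). In the collagen and matrix list 3 of 28 were higher, the basement membrane protein Nid1 by 0.97 (adjusted p = 8.36e-05, a departure of cystamine), Tnc by 0.49 and Bgn by 0.52, and the last 2 calls were lost without the replicate block (adjusted p = 0.353 and 0.561), and 5 other Tnc probes did not pass. Single genes of further lists were higher with cystamine than with Boc-DON, by 0.37 to 0.81. They were Grem1 and Pmepa1 of 22 TGF-beta and BMP targets and the sterol enzyme Cyp51 of 26 genes of cholesterol and fatty acid synthesis. Others were Hk2 and Ndrg1 of 29 of glycolysis and hypoxia, and Irf9 and Bst2 of 23 of interferon. Taldo1 of 8 of the pentose phosphate pathway, Atic of 19 of nucleotide synthesis and Srm of 9 of polyamine metabolism completed them. Against untreated Grem1 passed with Boc-DON alone (−0.69, adjusted p = 0.0242), Taldo1 with cystamine alone and the others with neither. The Grem1 arrays of the compounds overlapped. The heat shock list had 1 call of 24, Hspa2, which was lower with cystamine (−0.56, adjusted p = 0.0018), and cystamine alone departed. Over all genes 3.69% passed, and lists of this paragraph, with so few calls each, were not shown to differ from that share.

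Of the 35 response lists 11 had no call in either direction. These were the chaperones of the endoplasmic reticulum, the proteasome, the TCA cycle and oxidative phosphorylation, the PGC-1alpha axis, glutamine-using enzymes, S phase, mitosis, histones, transglutaminases, cytosolic ribosomal proteins and tRNA synthetases. Each held 8 to 43 measured genes, too few for 0 calls to be told from the 3.69% over all genes. No list was shown to be unchanged. Tgm2, which encodes the enzyme the study asks about, read 7.65, 7.70 and 8.60 with cystamine, 7.30, 7.46 and 8.24 with Boc-DON and 7.78, 7.73 and 8.68 untreated. All groups overlapped, and the difference between the compounds was 0.32 (95% interval −0.20 to 0.84, adjusted p = 0.614). Of the 9 glutamine-using enzymes measured, Nadsyn1 came closest, at −0.33 (adjusted p = 0.153).

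**Figure D4:**
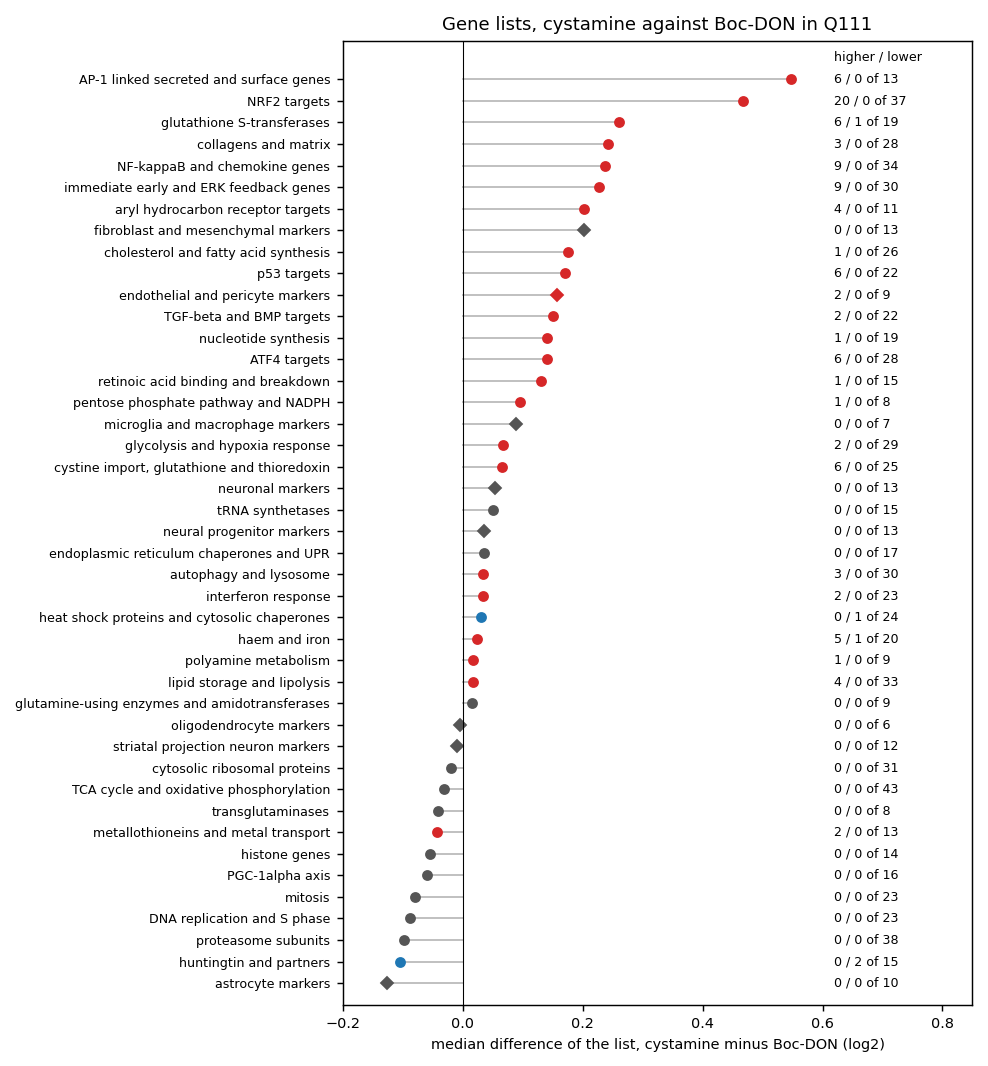
Median log2 difference of cystamine minus Boc-DON in Q111 cells over the measured genes of each of the 43 lists, with 1 probe per gene. Numbers at the right are genes higher and lower at an adjusted p under 0.05 of those measured, circles are response lists and diamonds cell type markers, and red and blue mark lists with more calls higher or lower. AP-1 linked genes and NRF2 targets have the highest medians, 0.548 and 0.467, against −0.00916 over all genes.

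Genes lower with cystamine than with Boc-DON moved by less and belonged to few of the lists. Slc46a3, a lysosomal solute carrier, had the largest difference. It stood at 7.30, 7.55 and 6.97 with cystamine, 8.65, 8.67 and 8.72 with Boc-DON and 7.78, 7.88 and 7.82 untreated. The groups did not overlap, and both compounds departed, cystamine by −0.55 (adjusted p = 0.0226) and Boc-DON by 0.86 (adjusted p = 0.0021), for a difference of −1.41 (SE 0.12, adjusted p = 9.88e-08). Dnajc12, a J-domain cochaperone, was at 8.18, 8.16 and 8.48 with cystamine, 9.34, 9.02 and 9.55 with Boc-DON and 8.79, 8.67 and 8.94 untreated. The untreated arrays of each chip lay between the compounds, neither departure passed, and the compounds differed by −1.03 (adjusted p = 4.38e-05). A second, very dim Dnajc12 probe differed by 0.09 and did not pass.

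Lrp11, a membrane protein of the LDL receptor family, read 9.14, 9.31 and 9.44 with cystamine, 10.02, 10.05 and 10.30 with Boc-DON and 9.32, 9.30 and 9.59 untreated. Boc-DON alone departed, upward by 0.72 (adjusted p = 0.0220). Prdm9, a histone methyltransferase of meiosis, was lower with cystamine by 0.76 in size (difference −0.76, adjusted p = 4.69e-05), and cystamine alone departed. Kyat3, an aminotransferase for kynurenine, differed by −0.95 (adjusted p = 0.0101), Mns1, a protein of sperm flagella and cilia, by −0.80, and Tctn3, a protein of the ciliary transition zone, by −0.74. None of these 3 passed against untreated with either compound. Insl6, Zhx1, Pcmtd1, Synrg and Ppip5k1, between −0.75 and −0.73, passed with neither as well. For Kyat3, Insl6, Zhx1 and Pcmtd1 the call was lost when single arrays were left out, with adjusted p up to 0.0994, and further probes of Kyat3, Pcmtd1 and Tctn3 did not pass (for Tctn3 −0.41, adjusted p = 0.0607).

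Casp6, a protease that cuts huntingtin, and Hap1, a huntingtin-associated transport protein, were the 2 of 15 genes of the huntingtin list that passed. Both were lower with cystamine. Over all genes 3.69% passed, 1.49% lower, and 2 calls were not shown to exceed that share. Casp6 read 10.73, 10.76 and 10.99 with cystamine, 11.47, 11.46 and 11.69 with Boc-DON and 11.21, 11.38 and 11.52 untreated. The cystamine arrays lay below all others, at −0.54 from untreated (adjusted p = 0.0078), and the compounds differed by −0.71 (adjusted p = 1.54e-04), although a dim second probe gave −0.21. Hap1 read 8.98, 8.85 and 9.02 with cystamine, 9.58, 9.49 and 9.51 with Boc-DON and 8.87, 8.84 and 9.24 untreated. Its cystamine and untreated arrays overlapped, Boc-DON differed from untreated by 0.54 without passing (adjusted p = 0.107), and 2 other Hap1 probes did not differ past the threshold. Htt differed by −0.19 (95% interval −0.38 to −0.01, adjusted p = 0.321), Ppargc1a by −0.26, Cycs by −0.24 and Bdnf by 0.10, and none of these passed.

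The same contrast in Q7 cells, on other arrays, gave 309 probes (1.56%), 198 higher with cystamine (0.997%) and the others lower (0.559%). Of these, 220 were also called in Q111 and all 220 in the same direction, which is 34.5% of the Q111 calls and 71.2% of the Q7 calls. They comprised 156 higher and 64 lower. The lines share the estimate of spread and the chip effects of the same model, so the calls in Q7 are not independent of those in Q111. Aldh3a1 differed by 3.15 in Q7, Prl2c2 by 3.41, Gsta2 by 2.79, Fosl1 by 1.5, Cyp26b1 by 1.28 and Slc46a3 by −1.41, each past the threshold. The NRF2 list had 17 genes higher of 37 and the AP-1 list 6 of 13. In the immediate early and ERK feedback list 7 of 30 were higher and 1 was lower. Of all genes 1.78% passed in Q7, 1.11% higher and 0.673% lower. Insl6, Kyat3 and Tctn3 passed in both lines, while Mns1, Zhx1 and Pcmtd1 differed in Q7 by −0.28, −0.30 and 0.10 and did not pass. A test of the difference between the lines called 0 probes in limma (1010 at an unadjusted p under 0.05, smallest adjusted p = 0.765), so no gene was shown to differ between the lines in this contrast.

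**Figure D5:**
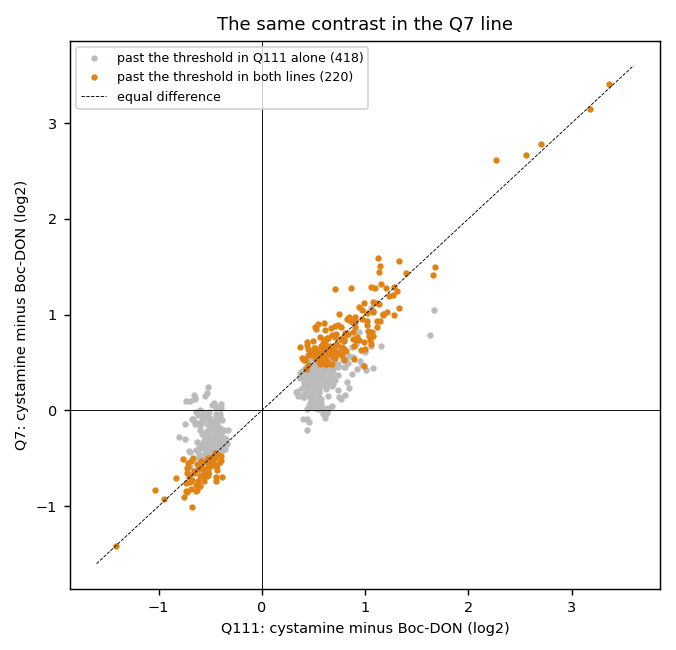
Difference of cystamine minus Boc-DON in Q111 cells (horizontal axis) and Q7 cells (vertical axis) for the 638 probes that passed in Q111 (log2 intensity). Orange marks the 220 that also passed in Q7, grey the others, and the dashed line equal differences. Differences are those of the model with the replicate block, from 3 arrays a group, except Q7 with Boc-DON, which has 2.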

How the data were processed

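RNA of 23 samples was measured on Illumina mouse bead arrays. The authors exported each probe's intensity from BeadStudio, per the submitters' processing notes, which name no version, and nothing says if background had been removed. The deposited series matrix gives log2 values, and a quantile normalization of log2 intensity matched them to within 5e-09. Among the intensities 1 array column belongs to no labelled sample and was not used. Without detection p-values, dim and absent genes look alike. The number of arrays limits the precision, and median intensities were 107.4 to 165.

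Background was modelled by normexp with an offset of 50 and arrays were quantile normalized after log2 (limma 3.58.1, R 4.3.3). Of 24611 probes, 19851 with 1 gene symbol were tested together, 4759 with none apart, and 1 for ribosomal RNA was dropped. The model had the 8 groups plus the replicate number as a block, with 13 residual degrees of freedom. Moderated, two-sided p-values were adjusted (Benjamini-Hochberg) for each comparison, with 0.05 as the threshold. The labels place each replicate number on 1 BeadChip, which pairs the arrays. Deviations from the group means in the 3 Q111 groups had a median correlation across probes of 0.213 between arrays of one number, positive in 9 of 9 pairs, and of −0.136 between arrays of different numbers, positive in 4 of 18. Deviations within a group cancel out, so the negative value follows in large part from the positive one and is not separate support for the pairing.

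The rule for named genes took the 12 largest differences each way among called probes with groups that did not overlap and whose higher group lay above the array median, up to 4 genes of each list with the smallest adjusted p, and Tgm2, Htt, Ppargc1a, Cycs and Bdnf. Other named genes were chosen after their values were seen. List counts use the brightest probe of each of 15161 genes. The members and the 43 lists were chosen with earlier results of these data known. Alternatives were no block, a filter on dim probes, 1 probe per gene, no background correction, median scaling, the deposited values, models of fewer arrays, and leaving out arrays or chips. The fits were tested on simulated data. RefSeq promoters (GRCm38.p6) were searched on both strands over 250 bases, and 57 of 77 named genes past the threshold had one.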

Additional observations from a re-analysis of the deposited data

Results flagged for a closer look

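Probes without a gene symbol lie outside the comparison of genes, and 90 of 4759 (1.89%) passed the threshold between cystamine and Boc-DON in Q111, 53 higher with cystamine and 37 lower. Their share is below that of the probes with a symbol (3.21%). The highest was scl20223.6.1_258-S, at 1.36 (SE 0.186, adjusted p = 1.72e-04), where cystamine differed from untreated by 0.90 (adjusted p = 0.0367) and Boc-DON by −0.46 (adjusted p = 0.481). The files and tables used here do not pair these probes with a gene.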

How the results depend on the processing

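Counts of probes past the threshold depended on the replicate block, the scaling and the number of arrays. Without the replicate block there were 326 between the compounds in Q111 (211 higher with cystamine, 115 lower), 67 for cystamine and 4 for Boc-DON against untreated, 59 with a departure, 170 in Q7 and 48 without a symbol. Median scaling gave 437 (176 and 261), 101 and 60 against untreated, 93 with a departure, 157 in Q7 and 57 without a symbol. The filter on dim probes, which tests fewer of them, gave 94 for Boc-DON against untreated. The Q111 arrays alone gave 15 for Boc-DON, and the 6 arrays alone gave 315 between the compounds (214 and 101) and 42 without a symbol. Leaving out an array or a chip gave 100 to 651 between the compounds, 85 to 398 higher and 15 to 253 lower, with 100 without chip 1 and 127 without chip 2. Against untreated it gave 29 to 168 for cystamine and 0 to 87 for Boc-DON, with 24 to 179 departures, and 27 to 395 in Q7, 0 to 1 between the lines and 6 to 93 without a symbol. Bdnf, which never passed, turned to −0.062 without Boc-DON replicate 3 and −0.03 without chip 3, in a range from −0.062 to 0.207. Of 2211 values of named genes, 1849 kept direction and side of the threshold, 360 kept direction but missed it and 2 reversed, both of Bdnf. Of 106 called results for named genes 41 kept the call under every alternative run, 33 lost it without the block, 27 under median scaling and 38 on leaving out 1 Q111 array. The cause of these shifts was not tested, and leaving arrays out leaves fewer to test. No detection calls were at hand, so differences of dim probes are least certain.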

Other observations

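Mgp, which encodes matrix Gla protein, an inhibitor of calcification, and Fam180a had differences between the compounds as large as that of Fosl1, but their arrays overlapped. Mgp stood at 10.67, 10.60 and 7.30 with cystamine, 8.49, 8.47 and 6.59 with Boc-DON and 8.97, 8.86 and 7.37 untreated, so that the array of replicate 3 was lowest in every group. The compounds differed by 2.18, 2.13 and 0.71 on chips 1, 2 and 3 and by 1.67 in the model (SE 0.29, adjusted p = 0.0011). Fam180a stood at 10.78, 10.75 and 7.49 with cystamine and 8.44, 8.23 and 7.47 with Boc-DON, with differences of 2.34, 2.52 and 0.03 by chip. Neither gene passed against untreated with either compound. Both were chosen after their values were seen, and the part of chip 3 in these results was not tested.

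Npr3, the clearance receptor for natriuretic peptides, was lower with cystamine than with Boc-DON by −0.74 (adjusted p = 0.0148) and fell with cystamine against untreated by 1.13 (adjusted p = 6.30e-04). Tgif1, a repressor of TGF-beta signalling, was higher with cystamine by its 3 probes, at 1.02, 0.94 and 0.58, and cystamine alone departed by each. These genes were chosen after their values were seen.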
